A study of Rattus norvegicus with 20 samples.

Results

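Cytosolic ribosomes are built from ribosomal RNA and ribosomal proteins, and the proteins of the large and small subunits are named Rpl and Rps. Their genes were examined in femur RNA of inbred and congenic rats selected for alcohol preference. Members were all probe sets whose annotated symbol began with Rpl or Rps and a number, without the Rps6k kinases, together with Rplp0, Rplp1, Rplp2 and Rpsa. The rule found 87 of the 31042 probe sets that were not controls. Of these, 57 carried a single symbol and covered 50 genes, namely 29 large-subunit genes (32 probe sets), 13 small-subunit genes (16 probe sets), 6 paralogs (7 probe sets) and 2 pseudogenes. The other 30 probe sets each listed several symbols and are counted below without gene names, and 6 further probe sets that listed a ribosomal protein after another symbol lay outside the rule.

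The 20 arrays came from 4 strains of rats aged 4 weeks, with 5 animals per strain and 1 array per animal. P.NP carried the NP segment of chromosome 4 on the P background, and P was the inbred alcohol-preferring strain. NP.P carried the P segment on the NP background, and NP was the inbred alcohol-nonpreferring strain. RNA was taken from proximal femora according to the labels and from femurs according to the methods, with no removal of marrow described, and the study used male rats. The values were MAS5 signals, which are linear intensities that the authors had scaled to a common trimmed mean on each array, and differences are given below on the log2 scale. Signals of different probe sets depend on their own probes, so the levels of different genes are not compared, and the brightness of a probe set is given only as a feature of its measurement.

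Ribosomal protein genes are among the most actively transcribed genes of dividing cells, and their products are made in matched amounts because each ribosome holds a single copy of nearly every protein. Many of their mRNAs begin with a cytidine followed by an uninterrupted run of pyrimidines, the terminal oligopyrimidine or TOP motif, through which mTOR signalling and the RNA-binding protein Larp1 set their translation. In marrow, red cell precursors depend strongly on ribosome supply, and in humans inherited loss of a single copy of several of these genes causes Diamond-Blackfan anaemia.

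Start regions of some of the genes discussed below are shown first, because the TOP motif is the best known feature shared by the family. RefSeq promoter windows of the rat assembly GRCr8 were matched by gene ID for 41 of the 50 genes, and each line holds 30 bases, 10 before and 20 from the annotated start. Capitals mark the longest pyrimidine run of at least 5 bases opened by C in the window, and a line without capitals holds no such run.
Rpl19, chr10:83519054-83519083, plus strand: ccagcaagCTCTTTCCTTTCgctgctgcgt
Rpl14, chr8:129163610-129163639, plus strand: ggCCCTCTCCCTTCTCgctgagcgccgcca
Rpl35, chr3:43165902-43165931, minus strand: CTTCCTCTTTCTCTCgaaccgggcggcctc
Rpl4, chr8:73566467-73566496, plus strand: tCTTCCTTTTCCTgtgggagcagccgggta
Rpl13a, chr1:104748894-104748923, minus strand: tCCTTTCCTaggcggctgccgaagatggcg
Rps23, chr2:23814507-23814536, plus strand: ccttcctgCCTCTCTTCTCTCTTTCTCTCg
Rpl6, chr12:41011671-41011700, minus strand: ttacatcactagatggcgggtgaaaaggcg
Rps3, chr1:163195757-163195786, minus strand: ttcagcggcgcgcggcagcaagatggcggt
Rpl39l1, chr10:5966602-5966631, minus strand: caggccgtcccgctatcctggtgtgtggtc
Rpl39, chrX:121195877-121195906, minus strand: taatcgcgttcttccggcctgtCCTTTCTC
Rpl26l1, chr10:17029009-17029038, minus strand: tcatttccgggcctgcgcacacaccaccgg
Rps4y2, chr4:183000903-183000932, plus strand: cagCTCTCCTCactcgcttgtgctctggga
Rpl19 to Rps23 are family members with a run near the annotated start. Rpl6 and Rps3 are members without one in the window, but Rps3 has a run of 14 bases that starts within 25 bases of the annotated start. The last lines are the paralogs with the largest differences between strains together with Rpl39, the parent of Rpl39l1. Rpl39 also has a run of at least 5 bases at the annotated start, left in lower case because the run in capitals is longer. Its longest run within 25 bases of the start has 22 bases. Other large- and small-subunit genes called lower below are not shown. Of these, Rpl11, Rpl18, Rpl3, Rpl24, Rpl41, Rpl7a and Rpsa hold no run in the window, and Rpl27a, Rpl23 and Rps15 hold one. Rpl18 and Rpsa have runs of 6 and 7 bases that start within 25 bases of the annotated start. A link between the runs and the strain differences was not tested.

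Of the 35 matched large- and small-subunit genes, 11 (31.4%) had a run of at least 5 pyrimidines opened by C exactly at the annotated start, against 881 of all 33469 promoters in the table (2.63%). A longer run, of at least 8 bases and within 25 bases of the start, was present in 23 of the 35 (65.7%), against 16% of all promoters. Among the 6 paralogs, 0 had a run at the start and 2 (33.3%) had the longer run near it. Over the whole 300-base promoters and on both strands, CCGGAAG, the core of the binding site of GABP-type Ets factors, was found in 8 of the 35 genes (22.9%; all promoters 8.75%). The TATA box TATAAA was found in 4 (11.4%; all promoters 14.2%). These matches describe letters at an annotated start, and neither initiation nor binding was measured.

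Most probe sets of the family were bright. Mean signals of single probe sets, which do not order the genes by expression, ran from 28.5 for the pseudogene Rps4x-ps1 to 76490 for Rps29, a small-subunit zinc-finger protein. Of the 180 probe sets of the array with a mean log2 signal of 15 or more, 59 were members. Probe sets whose mean log2 signal fell under the 40th percentile, a signal of 169.7, were not tested, which left 18625 in all and 83 of the 87 members. The 4 left out were Rps4x-ps1, the probe set of Rpl28, that of Rpl30 and the dimmer of the pair for Rpl14. Among the 83, the median within-strain SD was 0.11 on the log2 scale, against 0.20 over all probe sets tested, and it was 0.26 among the paralogs. The 59 bright members had a median SD of 0.105 and the 121 other bright probe sets 0.125, so most of the gap to all probe sets was shared by bright probe sets in general. The highest spread, 0.84, belonged to the dimmer Rpl3 probe set (1396049_x_at), whose strain difference therefore carries little information.

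The comparison over the genetic background, P.NP and P minus NP.P and NP, asked how femurs differed by the genome outside the transferred segment, and most members read lower on the P background. A moderated test in limma with Benjamini-Hochberg adjustment over all 18625 probe sets was used, at a false discovery rate of 10%. Of the 83 members, 30 fell and 2 rose. Over all probe sets tested 22.5% were called, 11.3% lower and 11.1% higher, and among the members 36.1% were called lower. The median log2 difference was -0.12 (-8.05%) over the members and 0.017 over all probe sets tested. A total of 75 members had a negative difference and 8 a positive one. All 59 members with a mean log2 signal of 15 or more were negative, with a median of -0.13 and 26 called, whereas the 24 dimmer members had a median of -0.023, with 4 called lower and 2 called higher.

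Part of that shift was shared by other bright probe sets. The 121 other probe sets with a mean log2 signal of 15 or more had a median difference of -0.071, with 26 called lower and 3 higher. They were taken by brightness alone and are not free of related genes. They include the small-subunit protein Rack1, the translation factor Eef1a1 and the erythroid gene Ahsp, beside bone and muscle genes such as Col1a1 and Acta1. Centring on them also removes any shift that they share with the members. When the arrays were centred on those 121 probe sets, an alternative chosen after seeing the data, the members' median was -0.017 and 6 members were called (28% of all probe sets tested), 2 lower (Rpl19 and Rpl6) and 4 higher (Rpl39l1, Rpl26l1, Rpl39 and Rpl37-ps2). Quantile normalization gave 10 calls (22% of all probe sets), 8 of them lower, with a median of -0.032, and cyclic loess gave 11 calls (22.1% of all), 9 of them lower, with a median of -0.041. The size of the family shift thus depended on the scaling, while Rpl19, Rps3, Rpl6, Rpl11, Rps4y2 and the shared probe set 1386868_at were called lower, and Rpl39l1 and Rpl26l1 higher, under each of the 5 scalings without a bright reference (as deposited, quantile, median centring, cyclic loess and an added offset).

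**Figure D1:**
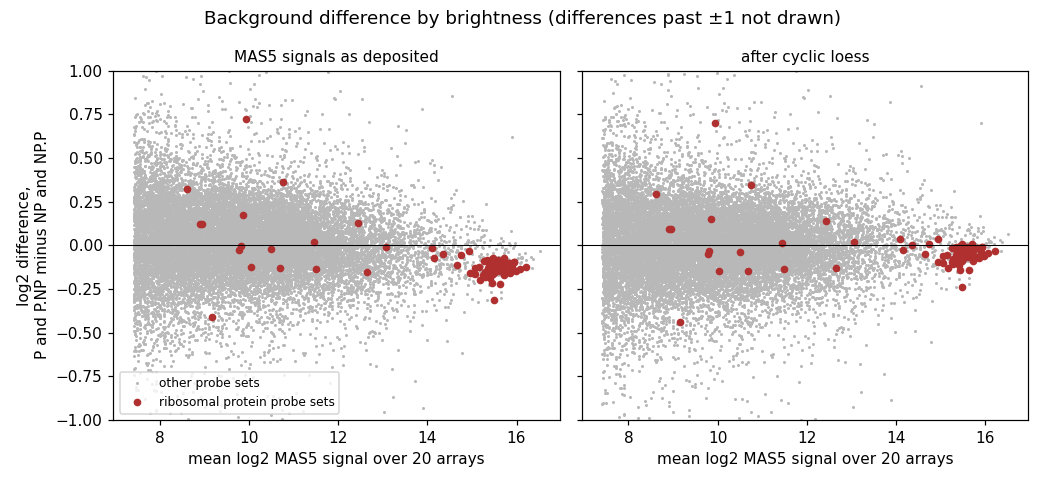
Log2 difference between backgrounds (P and P.NP minus NP and NP.P, y axis) against the mean log2 MAS5 signal over 20 arrays (x axis), for the deposited signals (left) and after cyclic loess (right). Red points are the 83 ribosomal protein probe sets and grey points the other probe sets tested. Most red points lie at the bright end just below 0, with a median of -0.12 on the left and -0.041 on the right.

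The shift of the family could also be followed array by array, as the median deviation of the 83 members from their means over 20 arrays. On the log2 scale it was 0.006, -0.068, -0.035, -0.15 and -0.11 in the P.NP arrays and -0.10, -0.14, -0.007, 0.027 and -0.013 in the P arrays. It was 0.034, 0.058, 0.13, 0.061 and 0.19 in the NP.P arrays and -0.21, 0.081, 0.089, 0.096 and 0.063 in the NP arrays. All 5 NP.P arrays and 4 NP arrays were above 0, 8 of the 10 arrays of the P background were below 0, and NP replicate 1 was the lowest array of all. That array also had the lowest maximum signal, 76830, against 83650 to 109500 on the other 19, and its other bright probe sets had a median deviation of -0.226. It was the lowest array of its strain for 69 of the 83 members and for 17.6% of all probe sets tested. Without it 59 members and 23.8% of all probe sets tested were called on the background, and with each array left out in turn the member count ranged from 20 to 59. The lowest count was reached without P.NP replicate 4, without P replicate 2 or without NP.P replicate 5, where 19.3%, 20.8% and 20.2% of all probe sets were called. The median difference over the members ranged from -0.14 to -0.10.

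**Figure D2:**
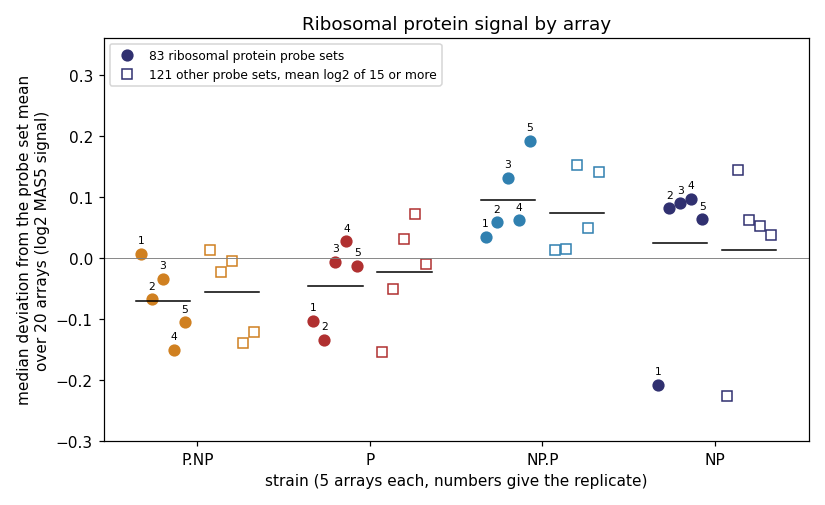
Median log2 deviation of the 83 ribosomal protein probe sets (filled circles) and of the 121 other probe sets with a mean log2 signal of 15 or more (open squares) from their means over 20 arrays (y axis), for the 5 arrays of each strain (x axis). Horizontal lines are strain means and numbers give the replicate. NP replicate 1 lies at -0.208 for the members, and the other NP arrays lie between 0.063 and 0.096.

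Among large-subunit genes, 14 of 29 probe sets tested (48.3%) fell on the P background and none rose, with a median of -0.12. Over all probe sets tested 11.3% were called lower and 11.1% higher. Rpl19, a protein with a long tail that reaches across the subunit interface, had the smallest adjusted p of the family. Its signals were 42410, 39170, 40170, 37040 and 40480 in P.NP, 43010, 40040, 45760, 44830 and 39240 in P, 50690, 49850, 54200, 50970 and 56100 in NP.P and 41240, 52990, 51970, 52600 and 52520 in NP femurs. All 5 P.NP and all 5 P arrays were below the 5 NP.P arrays, and NP replicate 1 was the only array of the NP background that overlapped them. The log2 difference was -0.32 ± 0.0529 (SE), adjusted p = 0.000388. The means were 39850 ± 1961 in P.NP, 42580 ± 2871 in P, 52360 ± 2663 in NP.P and 50270 ± 5056 in NP femurs (SD, n = 5 each).

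Rpl6, a large-subunit protein without a bacterial counterpart, had signals of 50670, 46380, 47440, 44410 and 46010 in P.NP, 44180, 44510, 49450, 48360 and 49150 in P, 53850, 54750, 56760, 53870 and 60760 in NP.P and 44670, 57030, 55120, 55940 and 56600 in NP femurs. Every array of the P background was below every NP.P array, and again NP replicate 1 alone overlapped from the NP side. The log2 difference was -0.22 ± 0.0507 (SE), adjusted p = 0.00547. Rpl11, which with Rpl5 and 5S rRNA can bind Mdm2 and hold p53 stable, had signals of 41250, 36780, 38330, 35510 and 36450 in P.NP, 38160, 33830, 38390, 39130 and 38100 in P, 42000, 43230, 43860, 42810 and 47920 in NP.P and 36440, 42900, 43580, 42950 and 40620 in NP femurs. The NP.P arrays were all above the P.NP and P arrays, with a log2 difference of -0.18 ± 0.0472 (SE), adjusted p = 0.0132. Its partner Rpl5 differed by -0.12 ± 0.0587 (SE), adjusted p = 0.175, which did not pass.

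The other called large-subunit genes had differences of similar size. Rpl13a, in humans also part of a complex that represses translation of inflammatory mRNAs, differed by -0.16 ± 0.0443 (SE), adjusted p = 0.0198. Rpl4, which lines the tunnel through which the new chain leaves, differed by -0.17 ± 0.0481 (SE), adjusted p = 0.021. Rpl18 differed by -0.16 (adjusted p = 0.0217), Rpl14 by -0.17 (0.0327) and Rpl35, which sits at the tunnel exit, by -0.17 (0.039). Rpl3, which reaches towards the peptidyl transferase centre, differed by -0.17 (adjusted p = 0.0382). Rpl24, which forms a bridge to the small subunit, differed by -0.12 (adjusted p = 0.0419). Its signals were 34860, 35700, 36000, 33330 and 32490 in P.NP, 35350, 34170, 35110, 35850 and 36530 in P, 39160, 41060, 39120, 38700 and 41900 in NP.P and 32830, 36510, 35520, 38320 and 38000 in NP femurs. The groups overlapped only through NP: all 5 NP.P arrays were above all 10 arrays of the P background, while the NP arrays reached down into their range. The remaining called probe sets of the large subunit were those of Rpl27a, Rpl7a, Rpl41 and Rpl23.

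Among small-subunit genes, 5 of 16 probe sets (31.2%) fell and none rose, against 11.3% of all probe sets called lower and 11.1% higher. The median was -0.13. Rps3, which lies at the site where mRNA enters the ribosome and is also known as a DNA repair endonuclease, had signals of 39250, 40660, 42420, 38390 and 37150 in P.NP, 43750, 40630, 44320, 42220 and 45820 in P, 44370, 51490, 49950, 52360 and 51910 in NP.P and 41300, 52270, 46140, 47900 and 44680 in NP femurs. All 5 P.NP arrays were below all 5 NP.P arrays, while the P arrays overlapped both NP.P and NP arrays. The log2 difference was -0.22 ± 0.0491 (SE), adjusted p = 0.00505. Rps9, which lies beside Rps3 at the mRNA entry, differed by -0.15 ± 0.0485 (SE), adjusted p = 0.0406. Rps15 and Rps23, both near the decoding centre, and 1 of the 3 probe sets of Rpsa, the laminin-receptor protein of the small subunit, were the others called lower. Rps6, the substrate of the S6 kinases, differed by -0.14 ± 0.0575 (SE), adjusted p = 0.117, short of the threshold, and the stalk protein of the large subunit Rplp0 differed by -0.11 (adjusted p = 0.228).

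**Figure D3:**
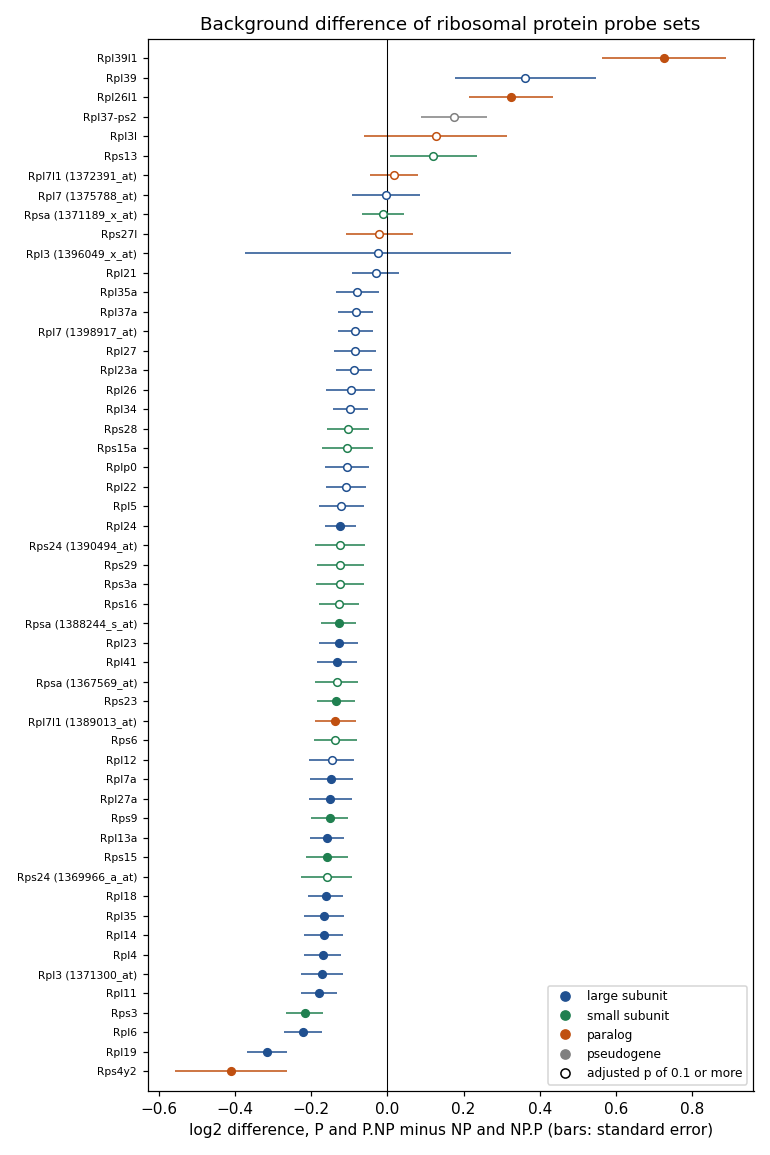
Log2 difference between backgrounds (P and P.NP minus NP and NP.P, x axis) of the 53 tested probe sets with a single symbol (y axis), with standard errors as bars. Filled points passed a false discovery rate of 10%, and colours give the role. Apart from Rps4y2 at -0.41 and Rpl39l1 at 0.72, most points lie between -0.32 (Rpl19) and 0.

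No member separated the backgrounds completely: with all arrays, 0 members had every array of the P background below every array of the NP background, against 0.929% of all probe sets tested. Without NP replicate 1 the count was 7, against 1.34% of all probe sets. These were Rpl19, Rpl6, Rpl3, Rpl12, Rpl35, Rps9 and the shared probe set 1367639_a_at. The shared probe set 1386868_at had a log2 difference of -0.20 ± 0.0566 (SE), adjusted p = 0.0213. Over all 30 shared probe sets, 9 (30%) fell and none rose, against 11.3% of all probe sets called lower and 11.1% higher. Their median was -0.10. Near-identical copies and processed pseudogenes of these genes can bind the same probes, so a signal may combine several transcripts.

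The paralogs did not move as a block, with 2 of 7 probe sets called higher, 2 lower and a median of 0.018. Over all probe sets tested 11.1% were called higher and 11.3% lower, and 7 probe sets are too few to compare with these shares. Rpl39l1, named as a paralog of Rpl39, a small protein of the exit tunnel, had signals of 1186, 1199, 1138, 1437 and 1457 in P.NP, 1463, 661, 1594, 1564 and 1272 in P, 838, 796, 528, 800 and 1041 in NP.P and 817, 467, 781, 772 and 1015 in NP femurs. Apart from P replicate 2, every array of the P background was above every array of the NP background. The log2 difference was 0.72 ± 0.163 (SE), adjusted p = 0.00484. The means were 1283 ± 151 in P.NP, 1311 ± 384 in P, 801 ± 183 in NP.P and 770 ± 196 in NP femurs (SD, n = 5 each).

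Rpl39 itself, on the X chromosome, had signals of 1599, 1534, 2095, 1890 and 1818 in P.NP, 2210, 2106, 1689, 2682 and 2322 in P, 1846, 2637, 2110, 1859 and 1122 in NP.P and 934, 857, 2868, 1228 and 1167 in NP femurs. The 4 strains overlapped, with NP replicate 3 the highest and NP replicate 2 the lowest of all 20 arrays. Its difference of 0.36 ± 0.184 (SE), adjusted p = 0.198 did not pass, and of the alternatives it passed only with centring on the other bright probe sets and in 1 of the 20 fits that left out an array.

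Rpl26l1, nearly identical to Rpl26 in humans, had signals of 437, 484, 416, 455 and 396 in P.NP, 432, 398, 434, 459 and 454 in P, 390, 350, 371, 206 and 416 in NP.P and 361, 258, 432, 388 and 387 in NP femurs. The P background arrays lay within 396 to 484, and the NP background arrays reached from 206 to 432, so the groups overlapped at the top of the NP range. The log2 difference was 0.32 ± 0.111 (SE), adjusted p = 0.0526, whereas Rpl26 differed by -0.10 ± 0.0644 (SE), adjusted p = 0.337.

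Rps4y2, a member of the Rps4 family annotated on chromosome 4, outside the gene order from Arf5 to Ppp4r2 that was taken as the transferred region, had signals of 806, 634, 360, 669 and 575 in P.NP, 271, 322, 602, 484 and 490 in P, 664, 541, 735, 701 and 512 in NP.P and 676, 722, 741, 699 and 628 in NP femurs. All 5 P arrays were below all 5 NP arrays, and the P.NP arrays spread over both. The background difference was -0.41 ± 0.146 (SE), adjusted p = 0.063, and it passed in 15 of the 20 fits that left out 1 array. No single-symbol member lay between Arf5 and Ppp4r2.

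Rps27l, in humans a target of p53, differed by -0.02 ± 0.0877 (SE), adjusted p = 0.904. The pair of probe sets for Rpl7l1, a protein of large-subunit assembly, disagreed in sign, with 0.02 ± 0.0623 (SE), adjusted p = 0.886 for 1372391_at and -0.14 ± 0.0546 (SE), adjusted p = 0.0998 for 1389013_at. The parents Rpl3 and Rpl7 also had a bright and a dim probe set each. The bright ones differed by -0.17 and -0.08, and the dim ones by -0.025 and -0.003.

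**Figure D4:**
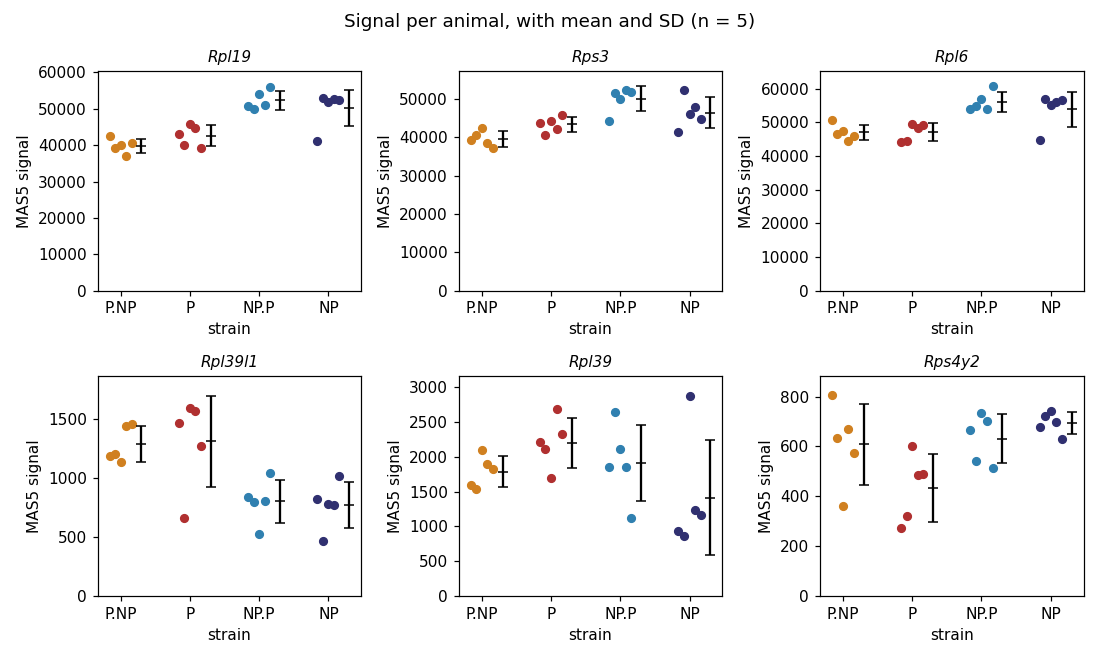
MAS5 signal (y axis) of 6 genes in the 5 animals of each strain (x axis), with the mean and SD beside the points. Rpl19, Rps3 and Rpl6 sit lower on the P background, with NP replicate 1 low among the NP arrays, Rpl39l1 sits higher, Rpl39 overlaps between strains, and Rps4y2 is lowest in P.

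Rpl3l, which replaces Rpl3 in striated muscle, did not differ detectably between backgrounds (0.13 ± 0.187 (SE), adjusted p = 0.697), but it varied widely among animals. Its signals were 4725, 8252, 6125, 4211 and 5240 in P.NP, 4000, 8742, 6202, 6392 and 5760 in P, 5451, 5244, 7009, 7686 and 5190 in NP.P and 5004, 9494, 4465, 3594 and 2872 in NP femurs. The range was widest in NP, where replicate 2 was the highest of all 20 arrays and replicate 5 the lowest. Replicate 2 was also the highest array in P and in P.NP, but not in NP.P. Whether the replicate number plays a part was not tested. Across the 20 arrays Rpl3l went with a score of 8 skeletal muscle genes, a relation tested after its spread had been seen. Pearson's r was 0.913 and Spearman's rho 0.824. Their two-sided permutation p-values were 1e-05, the smallest that 100000 resamples can give, and 4e-05. They were not adjusted for the choice of this relation after the data were seen, and are descriptive. Without the 2 arrays farthest from the median score r was 0.849 and rho 0.759, and after strain means were removed r was 0.941. The summed signal of the 8 muscle genes ran from 293600 to 382600 in P.NP, 271800 to 373700 in P, 300900 to 364300 in NP.P and 248500 to 423300 in NP femurs.

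**Figure D5:**
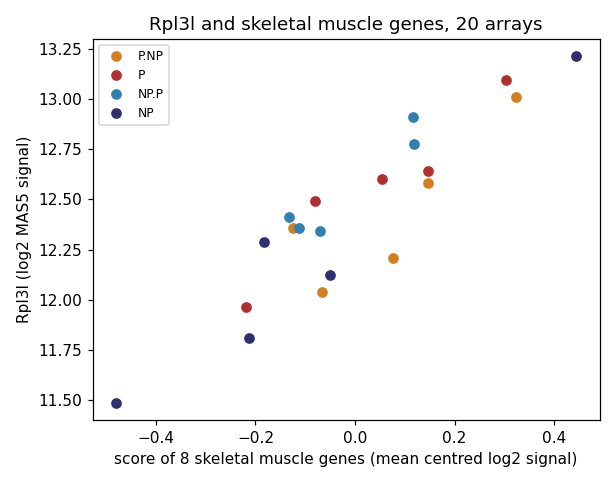
Rpl3l (log2 MAS5 signal, y axis) against the score of 8 skeletal muscle genes (mean centred log2 signal, x axis), 1 point per array, coloured by strain. The points rise together over the 20 arrays (r = 0.913), with the highest and the lowest array both from NP.

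Over the 4 strains at once, the moderated F test called 18.2% of all probe sets tested and 13 of the 83 members (15.7%), a share near that of all probe sets. These were Rpl19, Rps3, Rpl39l1, Rpl6, Rpl13a, Rpl11, Rpl24, Rpl18, Rpl4, Rps4y2, Rpl37-ps2, the shared probe set 1386868_at and the dimmer of the probe sets for Rps24. Rpl19 had the smallest adjusted p, 0.00275. For Rps24 the call rested on that dimmer probe set, with signals of 1048, 1080, 1040, 1009 and 1142 in P.NP, 978, 957, 810, 1010 and 1031 in P, 1231, 1463, 1083, 1124 and 1124 in NP.P and 1134, 1016, 880, 918 and 1098 in NP femurs and an adjusted p of 0.084. It was highest in NP.P replicate 2 and lowest in P replicate 3. The brighter probe set had an adjusted p of 0.329. Without NP replicate 1 the F test called 33 members and 18.1% of all probe sets, and without NP.P replicate 5 it called 6 members and 15.2% of all.

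P against NP femurs compared the inbred parents. Of all probe sets tested 5.36% were called, and 3 of the 83 members were. Of the members 1 was higher, against 2.43% of all probe sets, and 2 were lower, against 2.94%, and the members' median was -0.064. Rps4y2 differed by -0.73 ± 0.206 (SE), adjusted p = 0.0568, Rpl39l1 by 0.74 ± 0.231 (SE), adjusted p = 0.0907 and Rpl19 by -0.24 ± 0.0748 (SE), adjusted p = 0.0992. These 3 calls were close to the threshold, and of the 20 fits that left out 1 array, the Rps4y2 call passed in 16, the Rpl39l1 call in 4 and the Rpl19 call in 2. The Rps4y2 call was lost without P replicate 1, P replicate 2, NP replicate 3 or NP replicate 4, with an adjusted p of up to 0.144. Rpl39 differed by 0.78 ± 0.261 (SE), adjusted p = 0.12 and Rpl6 by -0.19 ± 0.0716 (SE), adjusted p = 0.184. Without filtering, or with the methods' unequal-variance test after Benjamini-Hochberg adjustment, 0 members were called.

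NP.P against NP femurs showed the P segment on the NP background. In limma 2.3% of all probe sets tested (0.816% higher, 1.49% lower) and 0 of the 83 members were called, while 3 members had an unadjusted p under 0.05. The median was 0.071, with 76 members positive, and the 121 other bright probe sets had a median of 0.074. Without NP replicate 1 the members' median was 0.005. The smallest adjusted p values, 0.212 each, belonged to Rpl37-ps2 (-0.33 ± 0.121, SE) and to the dimmer Rps24 probe set (0.25 ± 0.0927). Rpl24 had 0.14 ± 0.0564 (SE), adjusted p = 0.254, and Rpl39 had 0.54 ± 0.261 (SE), adjusted p = 0.386.

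P.NP against P femurs showed the NP segment on the P background. In limma 0.231% of all probe sets tested and 0 members were called, with 1 member at an unadjusted p under 0.05, and the median was -0.025. That member was Rps4y2, at 0.50 ± 0.206 (SE), adjusted p = 0.565. Rps3 followed at -0.13 ± 0.0695 (SE), adjusted p = 0.704 and Rpl37a at -0.12 ± 0.0652 (SE), adjusted p = 0.714. For the P segment over both backgrounds (P and NP.P minus P.NP and NP), 0.886% of all probe sets (0.478% higher, 0.408% lower) and 0 members were called in limma, with 4 at an unadjusted p under 0.05. The members' median was 0.048, against 0.054 over the 121 other bright probe sets. Rps3 had the smallest p, at 0.12 ± 0.0491 (SE), adjusted p = 0.344. For the difference in the segment's effect between backgrounds, 0.317% of all probe sets and 0 members were called in limma, with 2 at an unadjusted p under 0.05, and the smallest p was that of the dimmer Rps24 probe set, at -0.41 ± 0.131 (SE), adjusted p = 0.282. Rpl37-ps2, at 0.47 ± 0.171 (SE), adjusted p = 0.345, came next. NP.P, P.NP and the parents enter several of these comparisons, which are therefore not independent.

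Of the 18 ribosomal protein genes in a list of those known from inherited marrow failure, 9 had a single-symbol probe set and all 9 were tested. Some of the other genes appear only among several symbols of a shared probe set and were left out. Of such probe sets 1371377_at, 1398751_at, 1398315_at and 1386868_at were called lower on the P background, and 1367596_at and 1371301_at were not called. Of the 9 genes, Rpl11, Rpl18 and Rpl35 fell on the P background, and none rose, with a median of -0.12. These 3 of 9 compare with 36.1% of all members and 11.3% of all probe sets called lower, so the share of the list was near that of the family. The other 6 were negative but did not pass. Rps24 had -0.16 ± 0.067 (SE), adjusted p = 0.115, and Rps29, with the brightest probe set of the family, had -0.12 ± 0.0612 (SE), adjusted p = 0.186. Rps28 differed by -0.10 (adjusted p = 0.218), Rpl26 by -0.10 (0.337) and Rpl35a by -0.079 (0.374), and Rpl5 by -0.12 (0.175). In the other comparisons 0 of the 9 were called, except that Rpl11, Rpl18 and the dimmer Rps24 probe set passed the F test.

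Genes that make and use ribosomes were read from lists, each gene at its brightest probe set. Values of these and the following lists are given for the deposited scaling only, under which bright probe sets outside the family also read lower on the P background. Of 34 genes of ribosome biogenesis and the nucleolus, 20 fell on the P background and none rose, with a median of -0.15, against 11.3% of all probe sets called lower. Polr1b, a subunit of RNA polymerase I, had mean signals of 581 on the P background and 783 on the NP background, a log2 difference of -0.42 ± 0.0815 (SE, n = 10 each, limma adjusted p = 0.00139). Nop56, a core protein of the complexes that methylate ribosomal RNA, averaged 7089 on the P background and 8228 on the NP background (-0.21, adjusted p = 0.0021), and Nmd3, the export adaptor of the large subunit, 1717 on the P background and 2058 on the NP background (-0.26, adjusted p = 0.00246). The nucleolar proteins Ncl (-0.13, adjusted p = 0.0622) and Fbl (-0.17, adjusted p = 0.0751) were also among the 20.

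Of 28 translation factor genes, 14 fell and 1 rose, with a median of -0.11, where 11.3% of all probe sets were called lower and 11.1% higher. Eif5a, the hypusine-bearing elongation factor, averaged 19010 on the P background and 24340 on the NP background, a difference of -0.35 (adjusted p = 6.89e-06). The helicase Eif4a1 had -0.31 (adjusted p = 0.00312) and the elongation factor Eef2 -0.13 (adjusted p = 0.084). Eif2s3, a subunit of the factor that brings the initiator tRNA, was the gene that rose, with 3415 on the P background and 2528 on the NP background, a difference of 0.44 (adjusted p = 3.49e-06). Of the 73 mitochondrial ribosomal protein genes 17 fell and none rose, with a median of -0.069. Among 14 genes that control ribosomal protein synthesis 2 fell, a share near that of all probe sets. They were Myc, the transcription factor that drives ribosome production, at -0.41 (adjusted p = 0.0106) and Rheb, the activator of mTOR, at -0.11 (adjusted p = 0.0624), and the median of the list was -0.029. Rack1, a scaffold protein of the small subunit outside the Rps names, fell by 0.18 on the log2 scale (adjusted p = 0.022).

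Under the deposited scaling, erythroid and cell division genes also read lower on the P background. Of 20 erythroid genes measured, 16 fell on the P background and none rose (median -0.23), and of 19 cell division genes 13 fell and none rose (median -0.16), where 11.3% of all probe sets were called lower and 11.1% higher. The summed signal of the erythroid genes ran from 288100 to 319900 in P.NP, 297900 to 344800 in P, 362700 to 401000 in NP.P and 298000 to 357200 in NP femurs, and that of the cell division genes from 127000 to 136200 in P.NP, 135900 to 147600 in P, 155900 to 166300 in NP.P and 138100 to 158900 in NP. No gene of either list was near 0, the lowest mean signals being 633 and 1361. In NP.P against NP femurs, 4 of the 20 erythroid genes rose, where 0.816% of all probe sets were called higher, with a median of 0.23. The list includes Kel and Add2, which the paper places within the transferred region. In this comparison these genes therefore also differ by segment genotype. Of 10 genes of osteoblasts and bone matrix 2 rose and none fell on the P background, with a median of 0.069. Of 7 megakaryocyte genes 4 fell and 1 rose, of 11 macrophage genes 4 fell and 1 rose, and of 4 B lymphoid genes 2 rose. Of 10 cartilage genes 9 had a negative difference, with a median of -0.21, and none passed. Of 6 adipocyte genes 2 fell and 1 rose, of 4 granulocyte genes 1 fell, of 4 genes of T and NK cells 1 fell and 1 rose, of 8 skeletal muscle genes 1 rose, and 5 osteoclast genes had a median of 0.093. Whether the makeup of the femur samples takes part in the ribosomal protein differences was not tested, and in whole femur RNA fewer cells of a type and less RNA per cell cannot be told apart.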

How the data were processed

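Femur RNA of 20 rats was hybridized to Affymetrix rat genome arrays, 5 per strain. The deposited values are MAS5 intensity signals on a linear scale, made by the authors with the Affymetrix operating software, credited to MAS5 in the submitters' processing notes, and scaled to the same 2% trimmed mean of 1000 on every array. The paper's robust multichip average values and detection calls were not used here. Of 31042 probe sets that were not controls, 20826 had 1 gene symbol, 436 several and 9780 none in the platform annotation, and only the first were named.

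Signals under 1 (190 values) were set to 1 and taken to log2. A fit of 4 strain means over 20 arrays in limma 3.58.1 under R 4.3.3 gave moderated F and contrast tests with 16 residual and 2.78 prior degrees of freedom, Benjamini-Hochberg adjusted over the 18625 probe sets kept. Adjusted p-values in the text come from this fit. Named genes were the members with the lowest adjusted p per comparison (up to 12 in each direction among those past the threshold, or the 6 with the smallest p), the paralogs and their parents, the marrow failure list, the brightest and dimmest member, and members whose probe sets disagreed. The members, lists and tests were chosen with earlier results of these data known. Alternatives were quantile normalization, a 60th percentile filter, testing every probe set, median centring, cyclic loess, an added offset of 21.7, a mean-variance trend, a rate of 5%, plain probe sets only, 1 probe set per gene, fits of 2 strains, the methods' unequal-variance test, the replicate block, centring on other bright probe sets and each array left out. The fit was tested on simulated data. The 3' to 5' ratio of GAPDH was 1.03 to 1.15 on the arrays, with a mean of 1.13 in P and of 1.08 to 1.09 in the other strains. That of beta-actin was higher, at 1.85 to 2.39. Scan dates were not used here, and the number of arrays limits the precision.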

Additional observations from a re-analysis of the deposited data

Results flagged for a closer look

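Of 148 sets of 5 arrays examined for an array far from the other 4, 19 held one by Dixon's 95% limit. That limit lets through about 1 in 20 independent sets. These sets are not independent, because the members were read on the same arrays and moved together, so the count is not compared with that share. NP replicate 1 accounted for 13 of them and was low each time. Its signal was 41200 for Rpl19 (52000 to 53000 on the other NP arrays), 44700 for Rpl6 (55100 to 57000), 37400 for Rpl34, 46000 for Rpl3, 39400 for Rpl35, 33400 for Rpl23a, 49100 for Rps24, 37000 for Rps28, 62000 for Rps29 and 37200 for Rpl35a. It was 55600 for the shared probe set 1384548_at and 41400 for the shared probe set 1367639_a_at. The median deviation of the 83 members on this array was -0.208, against 0.063 to 0.096 on the other NP arrays.

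The other 6 concerned arrays of 2 strains. P replicate 2 was low for Rpl39l1 at 661 (1270 to 1590 on the other P arrays), for Rpl11 at 33800 (38100 to 39100) and for Rpl14 at 26800 (32300 to 34000). NP.P replicate 1 was low for Rps3 at 44400 (49900 to 52400 on the other NP.P arrays), NP.P replicate 4 was low for Rpl26l1 at 206 (350 to 416), and NP.P replicate 5 was high for Rpl14 at 38900 (36600 to 37200).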

How the results depend on the processing

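The members' median difference between backgrounds was negative under every alternative that gave one. Its moves were set against 0.0861, the within-strain SD of the members' median deviation on single arrays. This SD is wider than the error of a difference between group means. The median moved by more with quantile normalization (-0.032) and with centring on other bright probe sets (-0.017), an alternative chosen after seeing the data. Cyclic loess also made it smaller in size, by less than this SD. The 32 background calls became 17 without a filter (of all 87 members, 16 of them among the 32), 10 with quantile normalization, 11 with cyclic loess, 16 at a rate of 5% and 6 with centring on other bright probe sets. The 13 calls of the F test became 4 without a filter, 21 with the filter at the 60th percentile, 5 with quantile normalization, 22 with median centring, 6 with cyclic loess, 22 with the mean-variance trend, 4 at a rate of 5% and 5 with centring on other bright probe sets. The 3 calls of P minus NP became 0 without a filter, 0 at a rate of 5%, 0 with the methods' unequal-variance test, 1 with the 2 strains alone and 1 with centring on other bright probe sets. In the main fit 22.5% of all probe sets tested were called on the background, 18.2% by the F test and 5.36% in P minus NP. The shares under the alternatives are not all given here. A changed count of members is therefore not read as a result about the members, and the cause of these changes was not tested.

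With each array left out in turn, the background count ranged from 20 to 59, the F test from 6 to 33, P minus NP from 0 to 4, NP.P minus NP and the P segment from 0 to 1, and P.NP minus P and segment by background stayed at 0. The median differences ranged from -0.143 to -0.104 (background), -0.127 to -0.038 (P minus NP), 0.005 to 0.092 (NP.P minus NP), -0.052 to -0.006 (P.NP minus P), 0.019 to 0.061 (P segment) and -0.071 to 0.009 (segment by background). The high end for the background and the F test was reached without NP replicate 1. Of the background calls, 8 passed under each of the 5 scalings without a bright reference. With every array left out in turn 19 passed, and 7 passed under both. Among the 8, Rps3, Rpl11, Rps4y2 and 1386868_at did not pass with centring on other bright probe sets. Their limma adjusted p there was 0.106, 0.234, 0.134 and 0.188.

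Replicate numbers are shared by the strains in the labels. Correlations of same-numbered deviations averaged 0.038, 0.131, 0, -0.021 and 0.083 for replicates 1 to 5 and ran from -0.089 to 0.333. Of the 20 arrays, 9 correlated best with their own number. Whether the numbers pair the arrays was not tested, and the main fit took the arrays as unpaired. With the replicate block the background count was 34, the F test 11, P minus NP 2 and NP.P minus NP 1.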
